A study of Homo sapiens with 5 samples.

Results

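Binding sites of p53 and JMJD3 were compared between chromosomes that are rich in genes and chromosomes that are poor in genes. Every listed site on chromosomes 17, 19 and 22 was taken as gene-dense and every listed site on chromosomes 4, 13 and 18 as gene-poor by chromosome name. The 6 chromosomes hold 8805 of the 43443 listed sites (20.3%), of which 5112 are gene-dense and 3693 gene-poor. They comprise 69 of 361 p53 sites in untreated cells and 592 of 3232 p53 sites after ionizing radiation (IR), together with 1050 of 4717 JMJD3 sites in untreated cells and 7094 of 35133 JMJD3 sites after IR.

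The sites come from ChIP-seq, in which DNA fragments cross-linked to a protein are collected with an antibody and sequenced. The cells were BJ fibroblasts, a human diploid foreskin line made to divide indefinitely by hTERT, the catalytic subunit of telomerase. They were left untreated or received 10 Gy of X-ray IR and were harvested 6 h later according to the sample labels (the hour differs between the labels and the study's text), and fragments were collected with the p53 antibody DO-1 or with a rabbit serum raised against a part of JMJD3. There was 1 library for each combination of antibody and exposure, so no difference between untreated and irradiated cells has a replicate check. The labels name 1 rabbit IgG control library, from untreated cells, not analysed here. By the study's methods an IgG control was used for both proteins, but no IgG library from irradiated cells is named, and what a control from unexposed cells contributes to the ratios of irradiated to untreated sites was not tested. Each deposited list has 3 columns, chromosome, start and end in the hg18 assembly, with no height or read number. Depth is therefore unknown, a site is either listed or not, and no sequence or gene is printed for a site because no genome or annotation of hg18 was used here. Intervals are exact 95% binomial or Poisson intervals, and they cover counting error only, since neighbouring sites are not independent and chromosomes of one library are not replicates of a condition.

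p53 is a transcription factor that binds DNA directly at short response elements, is stabilised when DNA is broken, and switches on genes for cell cycle arrest, repair and apoptosis. JMJD3 (KDM6B) removes methyl groups from lysine 27 of histone H3, a mark of silenced genes, and, being an enzyme of histone tails, is not known to read a DNA motif by itself. Human chromosomes differ greatly in how many genes they carry per unit length, and gene-rich chromosomes tend to replicate early and to lie towards the interior of the nucleus, whereas gene-poor ones tend to lie at its edge. The label was checked against RefSeq (GRCh38.p14), counting genes and length within that assembly. Chromosome 19 carried 24.8 protein-coding genes per Mb, chromosome 17 carried 14.1 and chromosome 22 carried 8.88, which rank 1, 2 and 5 among the 22 autosomes. Chromosomes 4, 18 and 13 carried 4.05, 3.37 and 2.96, the 3 lowest. Taken as groups, the gene-dense chromosomes had 4.46 times as many genes per Mb as the gene-poor ones.

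The first question was whether each protein was listed more often per Mb on gene-dense chromosomes. Lengths are the span of each chromosome from the first to the last site of all 4 lists, 175 Mb for the gene-dense and 362 Mb for the gene-poor group. Both proteins were denser on the gene-dense chromosomes after IR, and JMJD3 was so before IR too.

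JMJD3 in untreated cells had 3.12 sites per Mb on chromosome 17, 5.35 on chromosome 19 and 3.54 on chromosome 22. On chromosomes 4, 13 and 18 it had 1.07, 0.684 and 1.04 sites per Mb. The 2 groups did not overlap, and chromosome 19 stood above the other gene-dense chromosomes beyond their counting intervals. Over the groups there were 702 sites at 4.01 per Mb against 348 sites at 0.962 per Mb, a ratio of 4.17 (3.66 to 4.75). JMJD3 sites were also wider on the gene-dense chromosomes, so that the ratio of the length covered per Mb was larger, 5.55. Between the 5 densest and the 5 poorest autosomes, a wider choice made after seeing the data, the ratio of sites per Mb was 2.35 (2.14 to 2.57).

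After IR, JMJD3 sites numbered 20.5, 27.4 and 22.6 per Mb on chromosomes 17, 19 and 22, the third, first and second highest of the 22 autosomes. Chromosomes 4, 13 and 18 had 8.37, 7.62 and 8.92 per Mb, the 3 lowest. The 16 other autosomes lay between them, from 10.8 to 16.6 per Mb. As groups there were 4095 gene-dense sites at 23.4 per Mb and 2999 gene-poor sites at 8.29 per Mb, a ratio of 2.82 (2.69 to 2.96), which is lower than before IR. Between the 5 densest and the 5 poorest autosomes it was 1.83 (1.77 to 1.89). Chromosome 19 again had the highest value and its interval (26.1 to 28.7) did not reach those of chromosomes 17 and 22.

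For p53 after IR the same 3 chromosomes were the higher ones but the differences were smaller. There were 1.70 sites per Mb on chromosome 17, 1.66 on chromosome 19 and 1.47 on chromosome 22, against 0.811, 0.853 and 0.909 on chromosomes 4, 13 and 18. No gene-poor chromosome reached a gene-dense one, although the counting intervals of chromosomes 22 and 18 touched (1.09 to 1.94 and 0.707 to 1.15). Within each group the 3 chromosomes were not separated by their intervals. The group ratio was 1.94 (1.65 to 2.29), from 287 and 305 sites.

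In untreated cells p53 had only 28 gene-dense and 41 gene-poor sites. The values were 0.178, 0.142 and 0.150 per Mb on chromosomes 17, 19 and 22, and 0.136, 0.105 and 0.0659 per Mb on chromosomes 4, 13 and 18. The ratio of 1.41 had an interval from 0.841 to 2.34, so a difference between the groups was not detectable with these few sites. Among the wider 50% of the list the ratio was 2.19 (1.06 to 4.52). Of the alternatives tried, this interval alone excluded 1. Between the 5 densest and the 5 poorest autosomes the ratio was 1.08 (0.753 to 1.54).

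Counting every listed site, JMJD3 was concentrated on gene-dense chromosomes more than p53 was. The gene-dense to gene-poor ratio of JMJD3 was 1.45 times that of p53 after IR (1.22 to 1.72) and 2.95 times in untreated cells (1.75 to 5.05). After IR this did not hold with sites within 10 kb merged, where the gene-dense to gene-poor ratios were 2.07 (1.94 to 2.21) for JMJD3 and 1.93 (1.63 to 2.28) for p53, with overlapping intervals. In untreated cells, merged in the same way, they were 3.22 (2.75 to 3.78) and 1.31 (0.770 to 2.19). These compare libraries made with different antibodies, whose depth is unknown.

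**Figure D1:**
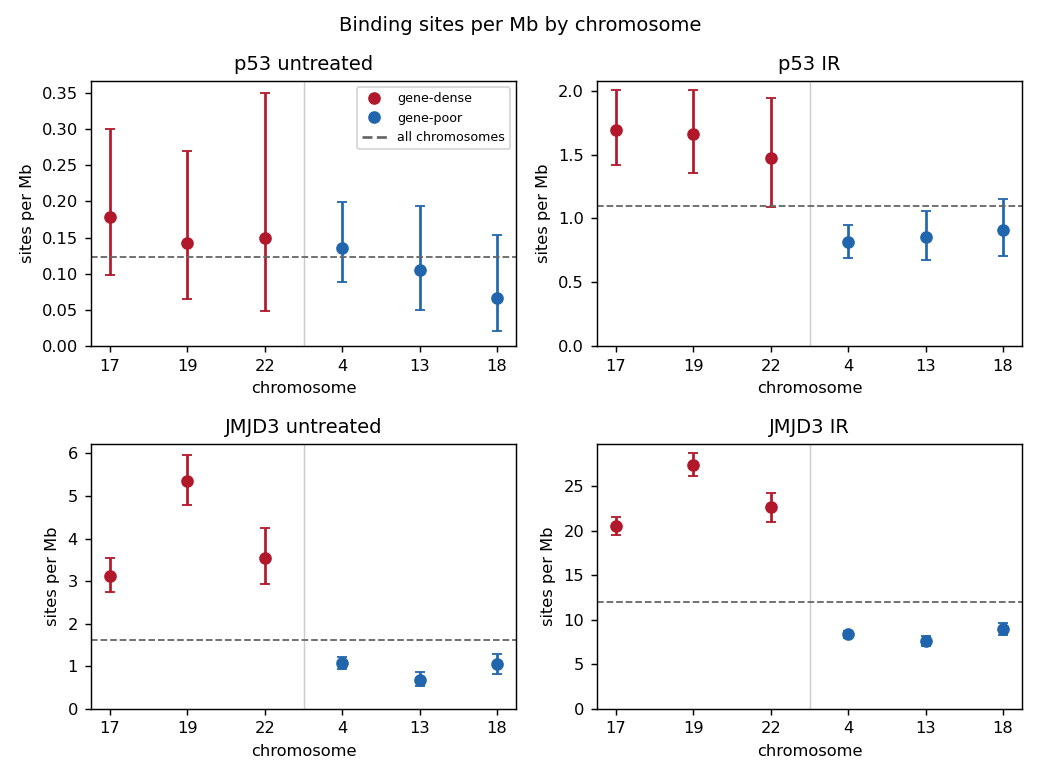
Sites per Mb of chromosome span for each list, by chromosome, with exact 95% Poisson intervals as bars and the value over all chromosomes as a dashed line. JMJD3 lies at 20.5 to 27.4 per Mb on the gene-dense chromosomes after IR and at 7.62 to 8.92 on the gene-poor ones, while p53 in untreated cells has overlapping intervals on all 6.

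The second question was whether the number of sites differed by the same factor between untreated and irradiated cells in both groups. For JMJD3 the ratio was lower on gene-dense chromosomes. Chromosome 17 had 245 sites before and 1608 after IR, chromosome 19 had 339 and 1733, and chromosome 22 had 118 and 754, which are ratios of 6.56, 5.11 and 6.39. Among gene-poor chromosomes, chromosome 4 had 204 and 1598 sites, chromosome 13 had 65 and 724, and chromosome 18 had 79 and 677, with ratios of 7.83, 11.1 and 8.57. All 3 gene-poor chromosomes had a higher ratio than all 3 gene-dense ones, and the ratio over all chromosomes, 7.45, lay between. Single chromosomes were less clearly apart than the groups, since the intervals of chromosome 4 (6.77 to 9.11) and chromosome 17 (5.73 to 7.54) overlapped. Chromosome 19 had the lowest ratio of the 22 autosomes and chromosome 13 the highest, while chromosome 4 lay close to their median of 7.84. The 16 other autosomes ran from 6.36 to 9.19, a range that holds chromosomes 17, 22, 4 and 18.

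Over the groups the JMJD3 ratio was 5.83 (5.38 to 6.33) on gene-dense and 8.62 (7.71 to 9.66) on gene-poor chromosomes. The first was 0.677 times the second (0.589 to 0.778, conditional exact interval). A difference in depth between the library of untreated and that of irradiated cells enters both groups, and its part in the unequal ratios was not tested. The covered length gave the same order, 3.84 times on gene-dense and 6.50 times on gene-poor chromosomes. Since the JMJD3 list of irradiated cells holds sites down to 125 bp and none of the other 3 lists goes under 200 bp, the ratios were also taken over sites of at least 200 bp. They were then 2.63 (2.41 to 2.87) and 3.58 (3.17 to 4.04), and the quotient was 0.735 (0.633 to 0.854).

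For p53 the ratios were 9.50, 11.7 and 9.80 on chromosomes 17, 19 and 22, and 5.96, 8.10 and 13.8 on chromosomes 4, 13 and 18. The groups overlapped, with chromosome 18 highest and chromosome 4 lowest of the 6. The pooled ratios of 10.3 (6.94 to 15.7) and 7.44 (5.36 to 10.6) had overlapping intervals, and their quotient, 1.38, had an interval from 0.807 to 2.38. The quotient was 1.02 without chromosome 4, which holds 26 of the 41 gene-poor sites listed before IR, and 0.963 when sites narrower than the median width after IR were left out.

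**Figure D2:**
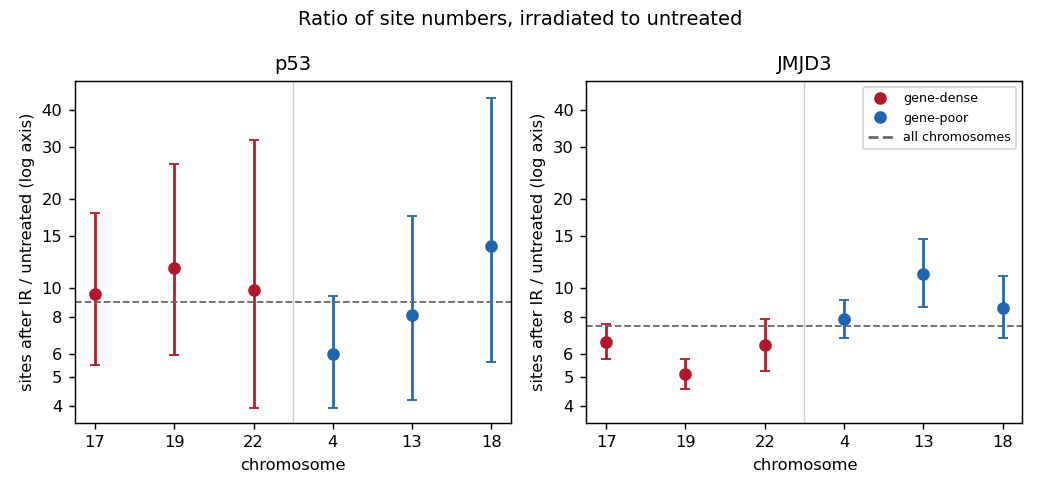
Number of sites after IR divided by the number in untreated cells, on a log axis, for p53 and JMJD3 by chromosome, with exact 95% intervals as bars and the ratio over all chromosomes as a dashed line. The JMJD3 ratios are 5.11 to 6.56 on gene-dense and 7.83 to 11.1 on gene-poor chromosomes, whereas those of p53 overlap.

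The JMJD3 sites of irradiated cells were then divided by whether they overlapped a JMJD3 site of untreated cells. Sites with a counterpart before IR were 616 of 4095 (15.04%, 14.0 to 16.2%) on gene-dense and 296 of 2999 (9.87%, 8.83 to 10.99%) on gene-poor chromosomes, beside 11.9% of the whole list. Sites with a counterpart occurred at 3.52 per Mb on gene-dense and 0.818 per Mb on gene-poor chromosomes, a ratio of 4.30 (3.74 to 4.96). Those listed only after IR occurred at 19.9 and 7.47 per Mb, and their ratio was 2.66 (2.53 to 2.80). Both classes were therefore denser on the gene-dense chromosomes, and the sites listed only after IR less so.

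By width, the sites of at least 300 bp stood apart. Among JMJD3 sites after IR, the gene-dense to gene-poor ratio of sites per Mb was 2.65 (2.49 to 2.82) for those under 200 bp, 2.67 (2.43 to 2.94) for those from 200 bp to under 300 bp and 3.70 (3.31 to 4.15) for those of at least 300 bp. For p53 after IR the width classes were alike within their intervals, with 1.93 (1.55 to 2.41) from 200 bp to under 300 bp and 1.96 (1.53 to 2.51) for at least 300 bp. The p53 sites with a counterpart before IR had a ratio of 1.47 (0.862 to 2.47) and those listed only after IR one of 2.01 (1.69 to 2.40), which overlap.

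Most sites of untreated cells were listed again. For p53 this was so for 27 of 28 gene-dense and 38 of 41 gene-poor sites, beside 95.6% of the whole list. For JMJD3 it was 620 of 702 (88.3%, 85.7 to 90.6%) and 289 of 348 (83.0%, 78.7 to 86.8%), beside 86.8% of the whole list. The odds were 1.54 times as high on gene-dense chromosomes (1.05 to 2.25). The shares were 95.6% and 95.1% among the wider 50% of the list but 77.2% and 71.6% without JMJD3 sites under 200 bp. The gene-poor share was 86.8% (80.2 to 91.9%) without chromosome 4 and 81.6% (76.6 to 86.0%) without chromosome 13. Chromosome 4 had the lowest share, 164 of 204 (80.4%), while chromosome 13, also gene-poor, had 58 of 65 (89.2%), close to the 90.2% of chromosome 17. The JMJD3 sites that were not listed again were narrow in both groups, with medians of 219.5 and 211 bp against 297 and 263 bp for those listed again.

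For p53 the width intervals of the groups overlapped in both conditions. After IR the median was 290 bp (266 to 302) on gene-dense and 283 bp (265 to 300) on gene-poor chromosomes. In untreated cells it was 318.5 bp (288 to 371) and 278 bp (241 to 352), a difference that 28 and 41 sites did not resolve. By chromosome the medians after IR ran from 266 bp on chromosome 18 to 305 bp on chromosome 13, both gene-poor. Sites already listed before IR had medians of 557 and 521 bp after IR, against 271 and 264 bp for those listed only after IR, so in both groups they were about equally wide.

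Taken as groups, JMJD3 sites were wider on gene-dense chromosomes. In untreated cells their median was 282 bp (271 to 295) against 249 bp (244 to 260), and the upper quartile 401.5 against 315.5 bp. Single chromosomes overlapped, with a median of 271 bp (247 to 292) on gene-poor chromosome 13 and 262 bp (244 to 286) on gene-dense chromosome 22, and without chromosome 4 the gene-poor median was 263 bp (246 to 282). After IR the medians were 189 bp (186 to 192) and 182 bp (179 to 185), and the mean widths 257 and 221 bp. The share of sites under 200 bp after IR was 54.9% on gene-dense and 58.5% on gene-poor chromosomes, beside 56.0% of the whole list. A gap of a few bp in the medians thus went together with a larger difference among the widest sites. The widest JMJD3 site after IR was 6844 bp on chromosome 17, 3176 bp on chromosome 19 and 2886 bp on chromosome 22, but 1666 bp on chromosome 4, 1926 bp on chromosome 13 and 1048 bp on chromosome 18.

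Those widest JMJD3 sites had counterparts before IR in all 6 cases. The one on chromosome 17, chr17:45617915-45624758, covered 8 separate JMJD3 sites of untreated cells. The one on chromosome 19, chr19:63074154-63077329, covered 2, and that on chromosome 22, chr22:44888457-44891342, covered 3. Of the gene-poor ones, chr13:34947186-34949111 covered 2 and chr4:120440033-120441698 and chr18:12317334-12318381 covered 1 each. None of the 6 held a p53 site.

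Spacing was measured as the gap from the end of a site to the start of the next on the same chromosome. The median JMJD3 gap in untreated cells was 26.1 kb (19.01 to 37.0) on gene-dense and 200 kb (166 to 329) on gene-poor chromosomes, 7.65 times as long. After IR it was 6.72 kb (5.89 to 7.74) and 22.1 kb (19.05 to 25.3), 3.28 times as long. Over sites of at least 200 bp, a width that only the JMJD3 list after IR goes under, the medians after IR were 16.4 and 50.01 kb. With sites within 1 kb merged, the medians were 3.58 times as long before IR and 2.05 times after it. Gaps under 10 kb made up 55.4% of JMJD3 gaps after IR on gene-dense and 39.3% on gene-poor chromosomes, beside 46.1% of the whole list. In untreated cells they were 42.6% and 25.8%, beside 36.9%.

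A shorter gap follows in part from the higher density, so the median was also divided by the mean gap. For JMJD3 after IR this was 0.158 on gene-dense and 0.183 on gene-poor chromosomes, and in untreated cells 0.105 and 0.193. Single chromosomes crossed after IR, with 0.184 on gene-dense chromosome 17 and 0.159 on gene-poor chromosome 4. The mean gap includes long stretches without sites, which were not masked, so these values are descriptions. For p53 after IR the values were 0.464 and 0.404, and the median gaps 277 kb (247 to 363) and 480 kb (402 to 632). Few p53 gaps were under 10 kb, 15 of 284 (5.28%) on gene-dense and 13 of 302 (4.30%) on gene-poor chromosomes, beside 3.96% of the whole list. Of the 15, chromosome 19 held 10, chromosome 17 held 5 and chromosome 22 none.

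Runs of JMJD3 sites, counted as at least 5 sites with gaps of at most 5 kb, held 1308 sites (31.9%) in 156 runs on gene-dense chromosomes after IR. On gene-poor chromosomes they held 561 sites (18.7%) in 61 runs, beside 21.6% of the whole list. By chromosome the share ran from 14.9% on chromosome 13 to 42.2% on chromosome 22. Chromosome 4, with 21.4%, was close to chromosome 17, with 23.9%. No run of this size was formed by p53 sites in either condition, where the largest group within 5 kb was 3 sites.

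The longest JMJD3 runs, named after their values were seen, were not limited to gene-dense chromosomes. The longest on the 6 chromosomes lay at chr22:44843591-44895855, with 59 sites in 52.3 kb and 15 JMJD3 sites before IR. Runs of 40 sites followed at chr22:44312439-44352706 and on gene-poor chromosome 13, at chr13:113560632-113603126, where the run was 42.5 kb long with 4 JMJD3 sites and 1 p53 site before IR. Of the 8 longest runs, 4 lay on chromosome 4 and 1 on chromosome 13. Among the longest run of each of the 6 chromosomes, that of chromosome 13 alone held a p53 site in untreated cells. The longest run had 32 sites on chromosome 17 and 27 on chromosome 4, while chromosome 19, the densest chromosome, had none above 17, and chromosome 18 none above 11. Chromosome 19 had 80 runs, which held 606 of its 1733 JMJD3 sites (35.0%).

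**Figure D3:**
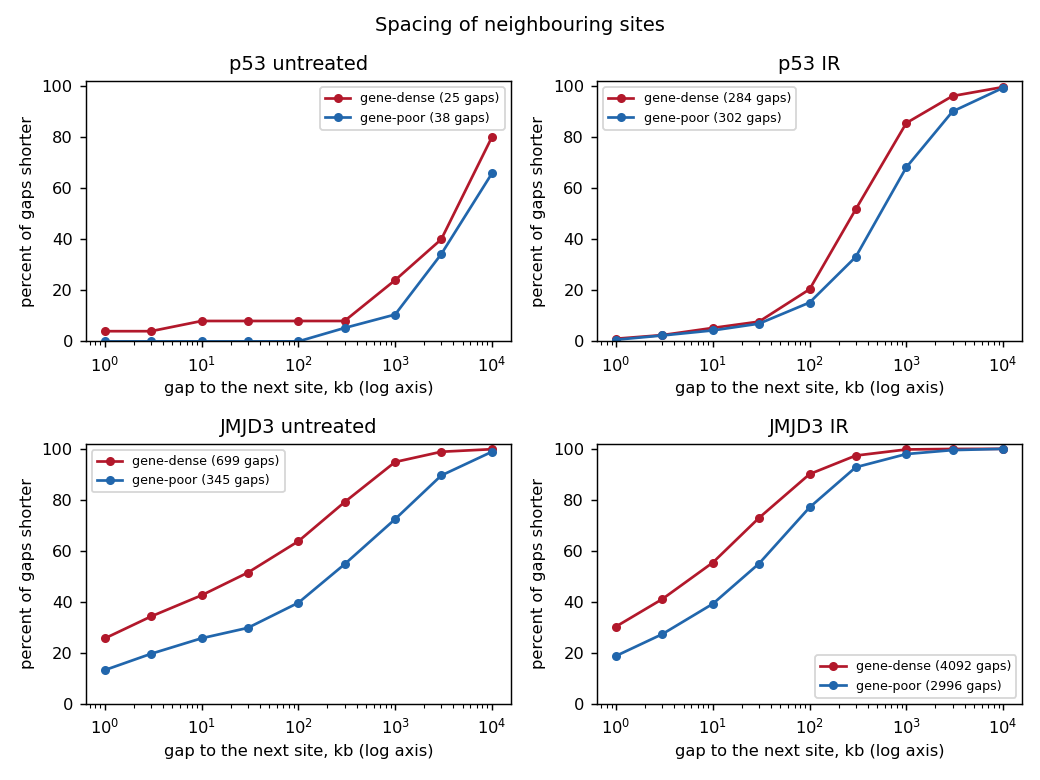
Cumulative share of gaps between neighbouring sites that are shorter than 1, 3, 10, 30, 100, 300, 1000, 3000 and 10000 kb (log axis), for the 4 lists and both chromosome groups. For JMJD3 the gene-dense line is above the gene-poor one from the shortest gaps on, with 30.4% against 18.9% under 1 kb after IR, while the p53 lines after IR run together up to 30 kb.

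Within each chromosome the sites were very unevenly placed. Windows of 1 Mb held a median of 18 JMJD3 sites after IR on gene-dense chromosomes (quartiles 9 and 31.25, 172 windows) and 5 on gene-poor ones (quartiles 0 and 11, 358 windows). No JMJD3 site was listed in 13 gene-dense windows (7.56%) and in 94 gene-poor windows (26.3%). The distributions overlapped, as 46 gene-poor windows (12.8%) reached the gene-dense median and 33 gene-dense windows (19.2%) were at or under the gene-poor median. Chromosome 19, the densest, had 9 empty windows of 62, more than the 3 of 77 on chromosome 17 and the 1 of 33 on chromosome 22. Its longest stretch without a site of any list was 8.84 Mb, and leaving such a stretch out of each span changed the JMJD3 ratio after IR from 2.82 to 2.92.

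Chromosomes 13 and 4 had windows fuller than any of chromosome 19, though not than the fullest of chromosome 17. On chromosome 13 the window from 113000001 to 114000000 held 74 JMJD3 sites after IR and on chromosome 4 that from 78000001 to 79000000 held 73, where 7 and 9 were listed before IR. Chromosome 17 had 82 in its fullest window (77000001 to 78000000) and chromosome 19 had 61 (49000001 to 50000000). Chromosome 22 stood apart with 167 JMJD3 sites between 44000001 and 45000000, where 27 were listed before IR. Chromosome 18 had no window above 37, the one from 12000001 to 13000000.

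For p53 the fullest windows after IR were not those of JMJD3 on any of the 6 chromosomes. Chromosome 19 held 10 p53 sites between 4000001 and 5000000, chromosome 17 held 9 between 35000001 and 36000000, and chromosome 22 held 6 between 36000001 and 37000000. Each gene-poor chromosome had at most 5, in the windows from 38000001 to 39000000 on chromosome 4, from 39000001 to 40000000 on chromosome 13 and from 10000001 to 11000000 on chromosome 18, where it ties with another window. No p53 site had been listed before IR in any of these 6 windows. JMJD3 sites after IR numbered 35, 62 and 55 in the gene-dense ones but 10, 8 and 14 in the gene-poor ones. Of all windows, 58 gene-dense (33.7%) and 193 gene-poor (53.9%) held no p53 site after IR.

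**Figure D4:**
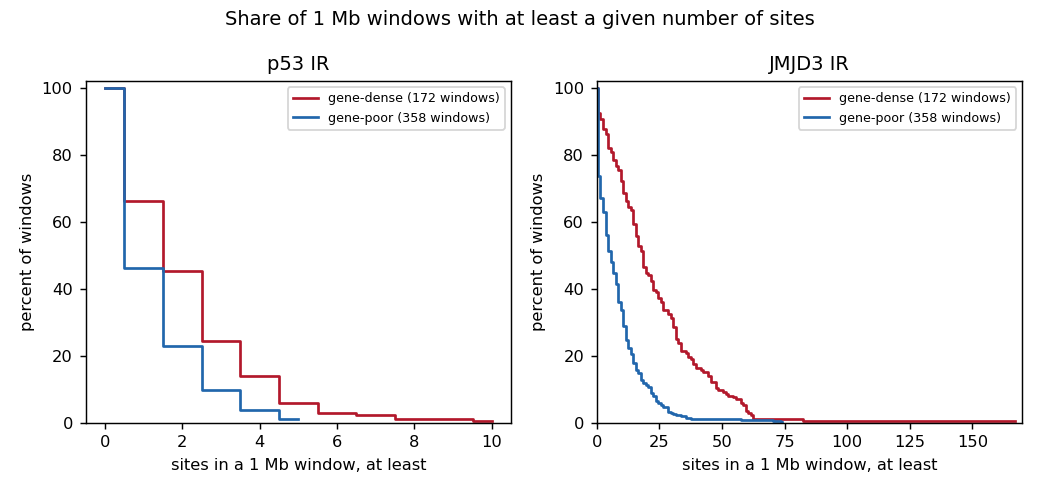
Share of 1 Mb windows that hold at least the number of sites on the horizontal axis, for p53 and JMJD3 after IR, over 172 gene-dense and 358 gene-poor windows. The gene-poor lines fall faster, and the far end of the JMJD3 panel is 1 window of chromosome 22 with 167 sites.

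The last comparison was the overlap of both proteins, counted as at least 1 bp shared. After IR, 82 of 287 p53 sites on gene-dense chromosomes overlapped a JMJD3 site (28.6%, 23.4 to 34.2%) and 47 of 305 on gene-poor chromosomes (15.4%, 11.5 to 19.96%), beside 21.2% of the whole p53 list. The odds ratio between the groups was 2.19 (1.44 to 3.36). Leaving out JMJD3 sites under 200 bp, a width that the other lists do not hold, the shares were 15.7% and 7.87% and the odds ratio 2.17 (1.25 to 3.85). Between the 5 densest and the 5 poorest autosomes, with all sites kept, the odds ratio was 1.63 (1.22 to 2.18). By chromosome the counts were 36 of 133 (27.1%) on 17, 27 of 105 (25.7%) on 19 and 19 of 49 (38.8%) on 22. They were 29 of 155 (18.7%) on 4, 8 of 81 (9.88%) on 13 and 10 of 69 (14.5%) on 18. Every gene-dense chromosome was above every gene-poor one, but the interval of chromosome 4 (12.9 to 25.8%) reached those of all 3 gene-dense chromosomes.

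Chromosomes with more JMJD3 sites offer more to overlap with, and JMJD3 sites after IR covered 0.600% of the gene-dense and 0.183% of the gene-poor span. The difference in overlap was smaller than this difference in cover. The centres of p53 sites lay inside a JMJD3 site in 18.1% of gene-dense and 11.1% of gene-poor cases, which is 30.2 and 60.9 times the covered share of the span. Over all chromosomes the centres were covered in 15.1% of cases, 53.4 times the covered share, a value nearer to that of the gene-poor group. Set beside positions 2 to 5 kb from the same p53 sites, where JMJD3 covered 1.18% and 0.449%, the centres were covered 15.4 and 24.8 times as often, beside 18.97 times over all chromosomes. Relative to the span, all 3 gene-poor chromosomes (52.6 to 65.8 times) were above all 3 gene-dense ones (23.3 to 39.1 times), although fewer of their p53 sites overlapped JMJD3. Relative to the positions 2 to 5 kb away the chromosomes overlapped, with 9.41 times on chromosome 19 and 37.2 times on chromosome 4 at the ends and 16.9 to 26.2 times on the other 4. No interval was computed for these quotients.

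JMJD3 sites were also nearer to p53 sites on gene-dense chromosomes when they did not overlap. The 205 p53 sites without overlap lay a median of 18.7 kb from the nearest JMJD3 site after IR, against 36.5 kb for the 258 gene-poor ones. Within 100 kb of a p53 site there was a median of 6 JMJD3 sites on gene-dense and 2 on gene-poor chromosomes, and 22 (7.67%) and 53 (17.4%) of the p53 sites had none, beside 14.2% of the whole list. Chromosome 13 was the extreme, with no JMJD3 site within 100 kb of 22 of its 81 p53 sites (27.2%).

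In untreated cells few of the same p53 positions overlapped JMJD3, 9 of 287 gene-dense (3.14%, 1.44 to 5.87%) and 6 of 305 gene-poor (1.97%, 0.725 to 4.23%), beside 2.63% of the whole list. The odds ratio of 1.61 had an interval from 0.505 to 5.58. On chromosome 19, which had most JMJD3 sites per Mb before IR, 1 of 105 p53 sites overlapped one. Among p53 sites listed before IR, overlap with a JMJD3 site of the same untreated condition was found at 0 of 28 gene-dense sites (0 to 12.3%) and 1 of 41 gene-poor sites (2.44%, 0.0617 to 12.9%), beside 0.831% of the whole list. The single site lay at chr4:140384091-140384353 and was listed for both proteins after IR as well.

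Seen from JMJD3, the groups were close. A p53 site was overlapped by 86 of 4095 JMJD3 sites after IR on gene-dense chromosomes (2.10%, 1.68 to 2.59%) and by 50 of 2999 on gene-poor ones (1.67%, 1.24 to 2.19%), beside 2.02% of the whole list. The odds ratio was 1.27 with an interval from 0.880 to 1.84. JMJD3 sites at p53 had median widths of 211.5 bp (184 to 264) and 198.5 bp (171 to 242), intervals that contain the medians of the other JMJD3 sites, 189 and 181 bp.

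Of the 82 gene-dense p53 sites that overlapped JMJD3 after IR, 63 (76.8%) had neither protein listed before IR, beside 72.2% of the 686 such sites of all chromosomes, 11 had p53 alone and 8 had JMJD3 alone. Of the 47 gene-poor ones, 30 (63.8%) had neither, 11 had p53 alone, 5 had JMJD3 alone and 1 had both. Sites with p53 alone were 13.4% of the gene-dense and 23.4% of the gene-poor ones, beside 15.9% over all chromosomes. Sites with JMJD3 alone were 9.76% and 10.6%, beside 11.5%. Chromosome 4 held 29 of the 47 gene-poor sites and 9 of the 11 with p53 alone.

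The widest p53 sites after IR illustrate the range. On chromosome 13 it was chr13:113572949-113574064, 1116 bp wide, which was listed for p53 before IR, overlapped 2 JMJD3 sites after IR and none before, and lay inside the run of 40 JMJD3 sites. On chromosome 4 it was chr4:153399438-153400413 (976 bp) and on chromosome 17 chr17:46386362-46387189 (828 bp), each listed for p53 before IR and overlapping 1 JMJD3 site after IR only. The widest of chromosome 19, chr19:51328489-51329481 (993 bp), and of chromosome 18, chr18:21367099-21367601 (503 bp), were listed for p53 only after IR and had no JMJD3 site. That of chromosome 22, chr22:22497968-22498933 (966 bp), had p53 before IR and no JMJD3 in either condition. The widest sites that did overlap JMJD3 on these 3 chromosomes were chr19:18345571-18346453 (883 bp, 2 JMJD3 sites after IR), chr22:44244193-44244859 (667 bp) and chr18:9280049-9280540 (492 bp), all listed for p53 before IR and without JMJD3 before IR. A wide p53 site was thus found with and without JMJD3 in either group of chromosomes.

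**Figure D5:**
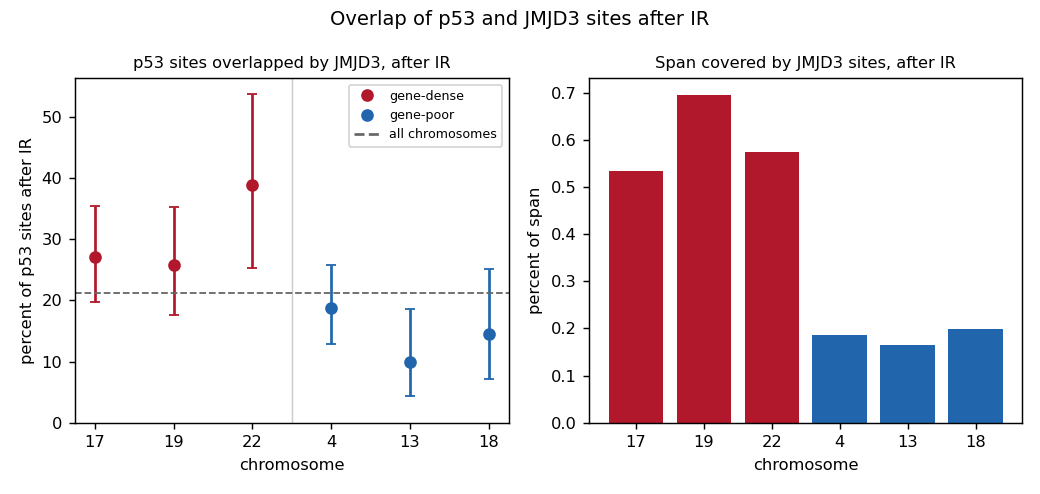
Left, share of p53 sites after IR that overlap a JMJD3 site after IR, by chromosome, with exact 95% intervals as bars and the share over all chromosomes, 21.2%, as a dashed line. Right, share of each chromosome's span covered by JMJD3 sites after IR, in percent, which differs more between the groups (0.600% against 0.183%) than the overlap does (28.6% against 15.4%).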

How the data were processed

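p53 and JMJD3 binding was mapped by ChIP-seq in untreated and irradiated BJ cells, with 1 library per list. According to the study's methods and the labels, the authors aligned tags to hg18 with Bowtie 0.12.7, kept unique alignments, used SAMtools, and ran MACS version 2 on each library with IgG as control. The threshold is not given in the sources used here. The deposited columns hold positions only, in bp, and are printed counting from 1. Depth is not given by the lists.

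Sites were taken by chromosome name. The chromosomes and measures were chosen with earlier results of these data known. Densities use the span from the first to the last site of the 4 lists, with gaps in the assembly not masked. Overlaps (at least 1 bp), gaps and windows were computed in Python 3.11.15 with numpy 2.4.6. Overlap counts, the density ratio and the intervals of medians were tested on simulated data, and the odds ratio interval on fixed counts. Gaps, windows and runs were not tested in this way. Shares and ratios carry exact (Clopper-Pearson) 95% intervals, counts per Mb exact Poisson intervals, medians order-statistic intervals, and quotients of ratios or odds conditional exact intervals (scipy 1.17.1). No test between conditions was made. Figures were drawn with matplotlib 3.10.9. Gene numbers are from RefSeq GRCh38.p14, with no positions moved between assemblies.

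Named regions follow a rule: on each chromosome the widest p53 and JMJD3 sites after IR, the widest p53 site overlapping JMJD3, and the fullest windows of 1 Mb. Sites listed for both proteins before IR are named as well, and the longest runs were added after the values were seen. Alternatives were other overlap rules, width limits, merging, another span, and each chromosome left out.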

Additional observations from a re-analysis of the deposited data

Results flagged for a closer look

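The contrast of irradiated with untreated cells differed between the chromosome groups for JMJD3. Its ratio of site numbers on gene-dense chromosomes was 0.677 times that on gene-poor chromosomes (conditional exact interval 0.589 to 0.778), from 702 and 4095 sites against 348 and 2999. The quotient stayed between 0.600 and 0.755 when any 1 of the 6 chromosomes was left out. It was 0.676 with sites within 1 kb merged and 0.643 with sites within 10 kb merged. It came nearer to 1 over sites of at least 200 bp, at 0.735 (0.633 to 0.854). Between the 5 densest and the 5 poorest autosomes it was 0.780 (0.708 to 0.859). Each condition has 1 library, and the part of depth or of the peak detection in this difference was not tested.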

How the results depend on the processing

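Of 262 alternative values, 205 stayed within the spread of the reported value, 57 moved beyond it, and 0 values whose interval excludes 1 reversed direction. Some of the 205 could not move. The p53 lists and the JMJD3 list of untreated cells hold no site under 200 bp, so that limit leaves values taken from them alone unchanged. The p53 quotient of ratios, 1.38 with an interval that spans 1, fell to 0.963 (0.465 to 1.99) for sites at or above the median width. No paired analysis was possible because there is a single library (1) for every antibody and exposure. The groups of 5 autosomes, and every alternative for the quotients of ratios and the overlap odds ratio, were chosen after seeing the data. The causes of the shifts below were not tested, beyond the loss of sites that each setting itself makes.

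With the 5 densest and the 5 poorest autosomes, the gene-dense to gene-poor ratio of sites per Mb was 1.44 for p53 after IR, 2.35 for JMJD3 in untreated cells and 1.83 for JMJD3 after IR, and the JMJD3 quotient of ratios was 0.780. With sites within 1 kb merged, the JMJD3 density ratio was 3.58 before and 2.42 after IR, and the median JMJD3 gaps were 97.5 and 349 kb before and 18.9 and 38.7 kb after IR (gene-dense first, here and below). With sites within 10 kb merged, the density ratio was 3.22 before and 2.07 after IR, and the ratios of irradiated to untreated sites were 4.52 and 7.03. In the wider 50% of each list, the JMJD3 density ratio was 5.55 before and 3.06 after IR, p53 sites were listed again in 100% and 100%, and JMJD3 sites in 95.6% and 95.1%. For sites of at least 200 bp, the JMJD3 density ratio after IR was 3.07, the ratios of irradiated to untreated sites 2.63 and 3.58, the median widths 287 and 270 bp, and the median gaps 16.4 and 50.01 kb. At or above the median width, the JMJD3 ratios were 2.99 and 4.07.

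The share of p53 sites that overlapped JMJD3 after IR was 16.4% and 9.51% with 50% of the width covered, 18.1% and 11.1% with the centre inside, and 15.7% and 7.87% with JMJD3 sites of at least 200 bp. JMJD3 sites were listed again in 80.1% and 75.9%, 78.5% and 74.7%, and 77.2% and 71.6% under the same settings. Counting sites within 1 kb, they were listed again in 93.9% and 89.1%, and JMJD3 sites met p53 in 3.05% and 2.40%.

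Leaving out each chromosome in turn, the JMJD3 density ratio was 3.38 to 4.92 before and 2.55 to 3.10 after IR. The JMJD3 ratio of irradiated to untreated sites was 5.44 to 6.51 on gene-dense and 8.04 to 9.73 on gene-poor chromosomes. The median JMJD3 gap after IR on gene-dense chromosomes was 5.43 to 7.76 kb, the median widths before IR on gene-poor chromosomes were 246 to 263 bp for JMJD3 and 235 to 292 bp for p53, and 92.9% to 100% of gene-dense p53 sites were listed again. The small p53 lists before IR and the unknown depth limit what could be detected.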

Other observations

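The 6 chromosomes were set among all 22 autosomes. Across these, the Spearman correlation of sites per Mb with protein-coding genes per Mb after IR was 0.839 for JMJD3 and 0.846 for p53, and before IR it was 0.782 for JMJD3 and 0.365 for p53. That of the JMJD3 ratio of irradiated to untreated site numbers was -0.482 and that of the p53 ratio 0.261. The 22 points of each correlation share a library, sites per Mb are taken over hg18 spans and genes per Mb within GRCh38.p14, and 6 of the chromosomes were selected for their gene density, so these are descriptions.

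Per protein-coding gene the order of the groups was the opposite of that per Mb. JMJD3 sites after IR numbered 1.33 per gene on gene-dense and 2.18 per gene on gene-poor chromosomes, with 1.38, 1.19 and 1.67 on chromosomes 17, 19 and 22 and 2.08, 2.14 and 2.51 on chromosomes 4, 13 and 18. For p53 after IR there were 0.0935 and 0.221 sites per gene. Chromosome 19 had the lowest value of the 22 autosomes for both proteins and chromosome 18 the highest. For JMJD3 in untreated cells the groups were nearly alike, with 0.229 and 0.253 sites per gene. These values divide sites by genes of the same chromosome and do not say that a site belongs to a gene.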
